A study of Mus musculus with 12 samples.

Results

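The leukocyte adhesion molecules and selectins of the neonatal mouse lung were examined as 9 named genes, Icam1, Icam2, Vcam1, Sele, Selp, Selplg, Madcam1, F11r and Jam2. They were taken by gene symbol from a table of 52550 genes, of which 21950 are protein-coding, and each of the 9 symbols had 1 row. All 9 passed the filter on low counts, together with 15885 protein-coding genes in all, although Sele and Madcam1 passed it only through the LPS groups, where they are high. Bulk RNA-seq was done on the whole lungs of 12 C57Bl/6J mice on postnatal day 5, with 3 mice in each of 4 groups. WT PBS (libraries 3, 4 and 5) and Adm+/- PBS (libraries 6, 7 and 8) received intraperitoneal PBS. WT LPS (libraries 9, 10 and 11) and Adm+/- LPS (libraries 1, 2 and 12) received lipopolysaccharide of Escherichia coli O55:B5, a bacterial endotoxin, at 6 mg/kg. Each mouse had 3 daily doses, and lungs of all groups were collected 6 h later.

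Adm+/- mice carry 1 disrupted copy of Adm, which encodes the vasoactive peptide adrenomedullin, in every cell. The allele was made on a 129/SvEv background and crossed into C57BL/6J, and mice without any Adm die as embryos, so the model is a partial loss. Median Adm levels were 4.57 CPM (counts of each library scaled to a common size) in WT PBS, 7.77 CPM in WT LPS, 3.62 CPM in Adm+/- PBS and 3.92 CPM in Adm+/- LPS, and the ranges of the genotypes overlapped under both treatments. Total counts ranged from 22382535 to 38062873 per library. The libraries of WT PBS 5 and Adm+/- PBS 6 stood apart from their groups, where protein-coding genes took 77.8% and 80.1% of counts, and 84.3% to 87.6% in the remaining 10 libraries. The set of 16 endothelial markers was detected in every library. Because whole lung was sequenced, fewer cells of a type and less RNA per cell cannot be told apart.

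Leukocytes leave the blood in steps. Endothelial selectins catch passing leukocytes through glycoproteins such as PSGL-1 (Selplg) and let them roll along the vessel wall. Leukocyte integrins then bind members of the immunoglobulin superfamily on the endothelium (ICAM1, ICAM2, VCAM1 and, mainly in mucosal venules, MAdCAM-1) and arrest the cell, after which junctional adhesion molecules such as JAM-A (F11r) and JAM-B (Jam2) take part in passage between endothelial cells. In the lung much neutrophil trafficking takes place in capillaries and part of it proceeds without selectins.

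Most of these genes rose after LPS in Adm+/- mice, and in both genotypes the number depended on the fit. In WT mice 6 of the 9 members rose and none fell, where 10.5% of all tested genes rose and 7.09% fell. The WT count was 4 to 6 when 1 library was left out, with 4 in 7 of the 12 fits, those without WT LPS 9 or WT LPS 10 among them, and 3 when only the WT libraries were fitted. In Adm+/- mice 8 of the 9 rose and none fell, where 12.8% of all tested genes rose and 12.2% fell. The Adm+/- count was 6 to 8 when 1 library was left out. Sele and Madcam1 passed the filter through the LPS groups alone and so had to differ. Over the remaining 7 members, which also passed it in the PBS libraries alone, 4 rose in WT and 6 in Adm+/- mice, with median log2 fold changes of 0.74 and 1.21. The LPS libraries were all over the PBS libraries for 6 members in WT, where 18.3% of all tested genes were, and for 8 in Adm+/- mice, where 26.6% were. Of the 7 members without Sele and Madcam1 these were 4 and 6. Here a gene rose or fell if its Benjamini-Hochberg adjusted p over all tested genes was under 0.05 in edgeR's quasi-likelihood test and its log2 fold change was larger than 0.5 in size. The median log2 fold change of all 9 was 0.92 in WT and 1.38 in Adm+/- mice, against 0.0091 and -0.013 over all tested genes. Selp and Sele had the largest fitted changes among the members with counts in every group, and Icam2 was the 1 member that passed the test in neither genotype.

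The sequences just before the start sites of the induced genes are given to show which of a few short motifs they hold. RefSeq gave a promoter for 5 of the 9 members on GRCm38.p6 (the mm10 build of the counts), and each was read as the 250 bases before the RefSeq start site on the + strand, which is the gene's own strand. They lie at chr1:164047984-164048233 for Sele, chr1:164115014-164115263 for Selp, chr9:21015690-21015939 for Icam1, chr10:79664309-79664558 for Madcam1 and chr1:171437311-171437560 for F11r. Capitals mark matches, on either strand, to an NF-kappa B type motif (GGNNNTTCC), an AP-1 motif (TGANTCA), a STAT motif (TTCNNNGAA) or a TATA box (TATAAA).
Sele: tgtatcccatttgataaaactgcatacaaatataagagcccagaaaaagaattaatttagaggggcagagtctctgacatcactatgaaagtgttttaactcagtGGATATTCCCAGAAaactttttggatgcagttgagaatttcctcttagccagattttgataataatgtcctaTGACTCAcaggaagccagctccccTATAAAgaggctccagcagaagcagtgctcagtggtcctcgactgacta
Selp: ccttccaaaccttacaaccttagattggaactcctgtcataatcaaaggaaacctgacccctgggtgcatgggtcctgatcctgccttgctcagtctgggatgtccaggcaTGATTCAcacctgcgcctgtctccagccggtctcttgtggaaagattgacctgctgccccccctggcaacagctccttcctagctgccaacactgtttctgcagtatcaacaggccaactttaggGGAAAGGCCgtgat
Icam1: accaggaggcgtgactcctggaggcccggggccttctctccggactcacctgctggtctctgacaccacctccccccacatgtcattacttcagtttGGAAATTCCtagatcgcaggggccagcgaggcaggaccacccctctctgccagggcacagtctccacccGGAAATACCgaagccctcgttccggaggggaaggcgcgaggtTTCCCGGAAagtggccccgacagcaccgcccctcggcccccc
Madcam1: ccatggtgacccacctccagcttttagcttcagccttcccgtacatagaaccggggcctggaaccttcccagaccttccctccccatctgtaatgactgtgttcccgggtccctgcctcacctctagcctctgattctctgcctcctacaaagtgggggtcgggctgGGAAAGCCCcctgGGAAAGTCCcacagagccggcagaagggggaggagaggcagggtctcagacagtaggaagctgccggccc
F11r: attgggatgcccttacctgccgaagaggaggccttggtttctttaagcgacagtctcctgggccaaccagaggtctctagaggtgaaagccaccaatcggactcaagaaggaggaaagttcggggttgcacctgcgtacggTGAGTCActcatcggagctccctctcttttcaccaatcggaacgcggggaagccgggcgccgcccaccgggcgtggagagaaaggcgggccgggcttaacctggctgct
The NF-kappa B type motif, written for the factor that carries much of the endotoxin signal, was matched in Icam1, Sele, Selp and Madcam1, and was present in 15.7% of 32817 promoter windows of the same length. The AP-1 motif was matched in Sele, Selp and F11r and in 6.75% of all windows. The STAT motif was matched in Icam1 and in Sele, where it overlapped the NF-kappa B type match, and in 7.01% of all windows. TATAAA was matched in Sele and in 12.4% of all windows. These matches are runs of letters only and do not show that a factor was bound.

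E-selectin (Sele; chromosome 1, 164048234 to 164057677, + strand), which endothelial cells make after cytokine or endotoxin exposure, was close to absent in PBS. WT PBS libraries held 0.233, 0.388 and 0.124 CPM and Adm+/- PBS libraries 0.316, 0.270 and 0.358 CPM, from 2 to 9 counts each. WT LPS libraries held 5.33, 1.95 and 0.518 CPM, and Adm+/- LPS libraries held 15.3, 16.7 and 13.6 CPM. Every LPS library was above every PBS library of its genotype, and the lowest WT LPS library held 13 counts. The log2 fold change was 3.35 (SE 0.73, adjusted p = 0.00850) in WT and 5.58 (SE 0.69, adjusted p = 0.000202) in Adm+/- mice. Because the filter kept Sele for its LPS levels, the fit without any filter is given too (adjusted p = 0.00774 and 0.000133). Limma-voom did not make the WT call (adjusted p = 0.0513), nor did a fit of the WT libraries alone (adjusted p = 0.0632), and the value without WT LPS 9 was 2.25 (adjusted p = 0.0273).

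P-selectin (Selp; chromosome 1, 164115264 to 164150026, + strand), which endothelial cells and platelets keep in storage granules, was also low in PBS. It stood at 0.388, 1.31 and 0.309 CPM in WT PBS and at 0.263, 0.574 and 0.477 CPM in Adm+/- PBS. It reached 41.1, 20.4 and 3.15 CPM in WT LPS and 74.4, 99.0 and 70.4 CPM in Adm+/- LPS. Neither genotype had an LPS library within its PBS range, and the WT LPS libraries were spread 13.1-fold from highest to lowest against 1.41-fold in Adm+/- LPS. The log2 fold change was 5.00 (SE 0.83, adjusted p = 0.00218) in WT and 7.46 (SE 0.89, adjusted p = 0.000170) in Adm+/- mice, and both were called in each of 12 leave-one-out fits. The WT value ran from 4.11 without WT LPS 9 to 5.90 without WT PBS 4. Per kb of exon, Selp was 4.01 to 6.89 times Sele within the WT LPS libraries and 3.22 to 3.92 times Sele within the Adm+/- LPS libraries, with a ratio of 0.550 to 2.23 in PBS libraries, where both genes rest on few counts. The genes Gm16548 and Gm16587 lie on the other strand of Selp. The sum of 10 platelet and megakaryocyte markers also stood higher after LPS, at 139 to 165 CPM against 104 to 109 CPM in WT and at 129 to 181 CPM against 92.5 to 99.8 CPM in Adm+/- mice, and its part in the Selp level was not tested.

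PSGL-1 (Selplg; chromosome 5, 113818536 to 113832644, - strand), the main selectin ligand on leukocytes, rose in both genotypes. Its levels were 12.2, 14.2 and 12.0 CPM in WT PBS and 38.5, 25.4 and 37.9 CPM in WT LPS. They were 12.2, 11.4 and 10.8 CPM in Adm+/- PBS and 32.5, 26.4 and 30.5 CPM in Adm+/- LPS. The PBS and LPS libraries did not overlap in either genotype. The log2 fold change was 1.40 (SE 0.16, adjusted p = 0.000334) in WT and 1.38 (SE 0.16, adjusted p = 0.000169) in Adm+/- mice, with a difference of -0.024 between genotypes and a 95% interval from -0.52 to 0.48. Leukocyte markers moved with it: the sum of 14 neutrophil markers was 84.9 to 260.0 CPM in WT PBS and 2296 to 4073 CPM in WT LPS, and 75.9 to 100.9 CPM in Adm+/- PBS and 2942 to 3320 CPM in Adm+/- LPS. Of the 13 neutrophil markers tested, 12 rose in WT, where 10.5% of all tested genes did, and 13 in Adm+/- mice, where 12.8% did. The part of these cell types in the Selplg level was not tested.

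**Figure D1:**
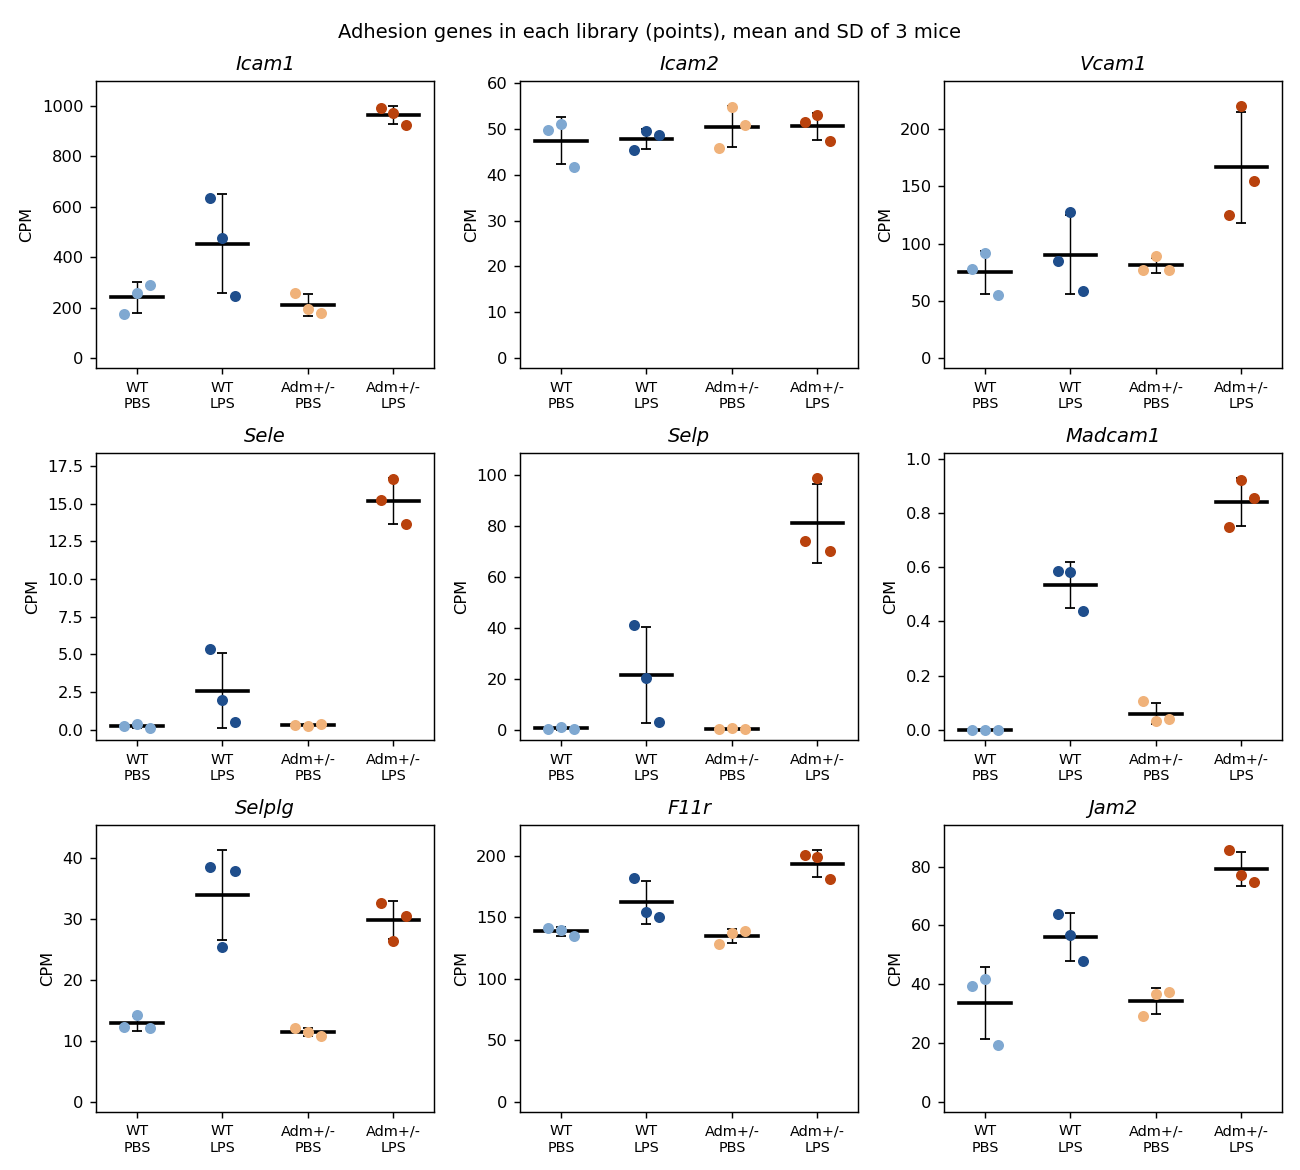
Level of each of the 9 genes in CPM in the 12 libraries (points), with the mean (thick bar) and SD (thin bar) of the 3 mice of each group and a linear axis for each gene. The Adm+/- LPS libraries of Icam1, Sele and Selp sit above all other libraries, the WT LPS libraries of these 3 genes are widely spread, and Icam2 lies between 41.6 and 54.8 CPM throughout.

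ICAM1 (Icam1; chromosome 9, 21015985 to 21028817, + strand), the inducible ligand of the integrins LFA-1 and Mac-1, is made by endothelium and also by alveolar epithelium and leukocytes. It was measured at 173, 259.6 and 288 CPM in WT PBS and at 637, 478 and 247 CPM in WT LPS. In Adm+/- mice it was at 259, 193 and 177 CPM in PBS and at 993, 973 and 925 CPM in LPS. WT LPS 11 lay inside the WT PBS range, whereas every Adm+/- LPS library was over all other libraries. The log2 fold change was 0.92 in WT (SE 0.29, adjusted p = 0.0445) and 2.20 in Adm+/- mice (SE 0.30, adjusted p = 0.000368). The WT call was close to the threshold and did not hold in 9 of the 12 leave-one-out fits, with adjusted p values up to 0.218 without WT LPS 9, where the log2 fold change was 0.59. Among these fits it was kept only without WT PBS 5, WT LPS 11 or Adm+/- PBS 6, and limma-voom did not make it (adjusted p = 0.0624). It was also lost with all annotated genes (adjusted p = 0.0650) and in the fit of the WT libraries alone (adjusted p = 0.138). Gm47079 shares 511 exonic bases with Icam1 on the other strand.

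ICAM2 (Icam2; chromosome 11, 106377656 to 106388075, - strand), the constitutive endothelial ligand of LFA-1, is also found on platelets and some leukocytes. Its levels were 49.7, 51.0 and 41.6 CPM in WT PBS, 45.5, 49.6 and 48.6 CPM in WT LPS, 45.9, 54.8 and 50.8 CPM in Adm+/- PBS, and 51.5, 53.0 and 47.3 CPM in Adm+/- LPS. All 4 groups overlapped. The 95% interval of the LPS effect ran from -0.22 to 0.25 on the log2 scale in WT and from -0.23 to 0.24 in Adm+/- mice (adjusted p = 0.944 and 0.994). Per kb of exon, Icam1 was 1.52 to 3.02 times Icam2 in the 6 PBS libraries, 2.22 to 6.12 times in WT LPS, and 8.01 to 8.54 times in Adm+/- LPS.

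VCAM1 (Vcam1; chromosome 3, 116109949 to 116129688, - strand), the endothelial ligand of the integrin VLA-4, was raised by LPS in Adm+/- mice. It was measured at 78.0, 92.0 and 55.0 CPM in WT PBS and 84.6, 127.6 and 58.8 CPM in WT LPS, which overlapped. In Adm+/- mice it was at 76.5, 88.8 and 77.3 CPM in PBS and at 125, 220.03 and 155 CPM in LPS, with no overlap. The log2 fold change was 1.04 in Adm+/- mice (SE 0.28, adjusted p = 0.0162) and 0.27 in WT (SE 0.28, adjusted p = 0.514). The Adm+/- call was lost without Adm+/- LPS 2 (0.79, adjusted p = 0.0736), Adm+/- PBS 6 (0.998, adjusted p = 0.0557) or Adm+/- PBS 8 (1.01, adjusted p = 0.0552). Without WT LPS 10 the WT value was -0.067, without WT LPS 11 it was 0.50, and neither was called.

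MAdCAM-1 (Madcam1; chromosome 10, 79664559 to 79668537, + strand), the mucosal ligand of the integrin alpha4beta7, was the rarest member. The WT PBS libraries held 0, 0 and 0 counts and the WT LPS libraries 19, 14 and 11 counts. The Adm+/- PBS libraries held 2, 1 and 1 counts and the Adm+/- LPS libraries 20, 22 and 24 counts, or 0.748, 0.922 and 0.855 CPM. PBS and LPS libraries did not overlap in either genotype. With a floor of 3 counts over the group, the level was at least 11.2-fold higher after LPS in WT, and in Adm+/- mice the ratio was 15.5, with a 95% interval from 5.76 to 58.4 that covers counting error only. Madcam1 entered the fit only through its LPS levels, so its calls there (adjusted p = 0.000690 and 0.000328) are given with those of the fit without a filter on low counts (adjusted p = 0.000683 and 0.000424).

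Of the junctional adhesion molecules, Jam2 rose in both genotypes and F11r in Adm+/- mice. F11r (chromosome 1, 171437535 to 171464603, + strand), which encodes JAM-A of endothelial and epithelial tight junctions and of platelets, was at 142, 139.7 and 135 CPM in WT PBS and 182, 154 and 150.1 CPM in WT LPS. It was at 128, 137 and 139 CPM in Adm+/- PBS and 201, 199 and 181 CPM in Adm+/- LPS. The LPS libraries were over the PBS libraries in both genotypes, but the log2 fold change was 0.23 in WT (SE 0.094, adjusted p = 0.108) and 0.52 in Adm+/- mice (SE 0.095, adjusted p = 0.00180). The Adm+/- value fell just under the fold limit without Adm+/- PBS 6 (0.48) or Adm+/- LPS 1 (0.496). Jam2 (chromosome 16, 84774123 to 84825928, + strand), which encodes the endothelial JAM-B, stood at 39.5, 41.6 and 19.3 CPM in WT PBS and 63.9, 56.7 and 47.7 CPM in WT LPS. In Adm+/- mice it stood at 29.2, 36.5 and 37.2 CPM in PBS and 85.8, 77.3 and 74.6 CPM in LPS. No LPS library lay within the PBS range of its genotype. The log2 fold change of Jam2 was 0.74 in WT (SE 0.24, adjusted p = 0.0437) and 1.21 in Adm+/- mice (SE 0.24, adjusted p = 0.00289). The WT call of Jam2 did not hold in 8 of the 12 leave-one-out fits, all but those without WT PBS 3, WT PBS 4, WT LPS 11 or Adm+/- PBS 6. Its lowest value was 0.47 without WT PBS 5, the library with the lowest Jam2 level, and its highest adjusted p was 0.167 without WT LPS 9.

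**Figure D2:**
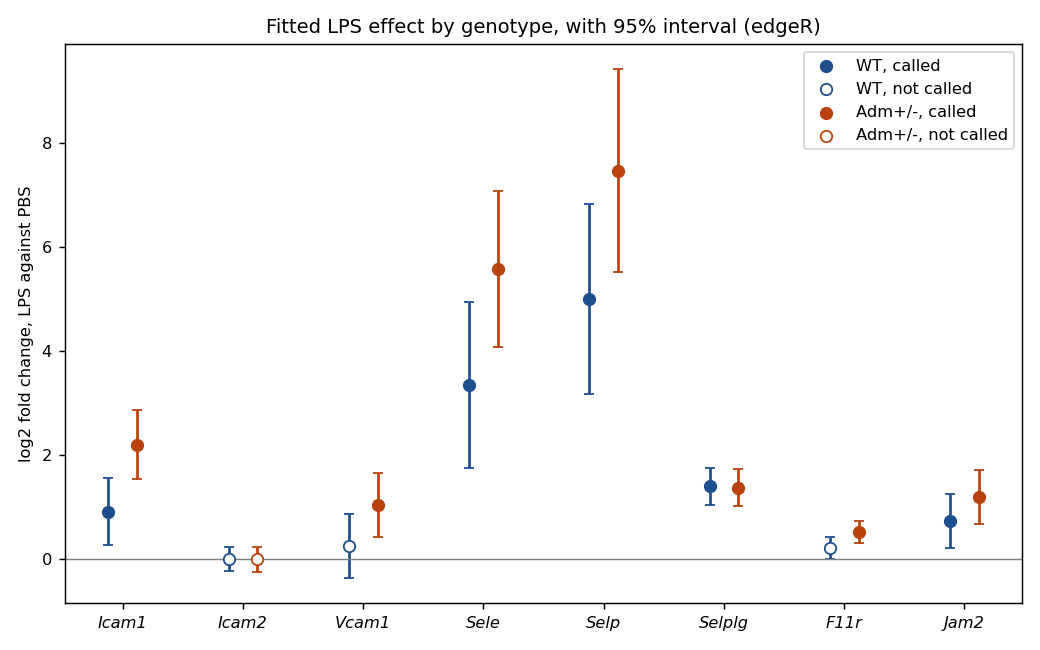
Fitted log2 fold change of LPS against PBS for 8 genes in WT and Adm+/- mice, with 95% intervals from edgeR; filled points passed the test and open points did not. Madcam1 is left out because its WT PBS libraries held 0 counts. Sele, Selp, Icam1 and Vcam1 have higher point values in Adm+/- mice with overlapping intervals, and Selplg is at 1.40 and 1.38.

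Whether Adm haplodeficiency changed the response was asked with the difference between the 2 LPS effects and with the genotypes compared within each treatment. These comparisons use the same libraries as the LPS effects and are not independent of them. None of the 9 members passed the test of the difference, where 0.145% of all tested genes were called in edgeR. These were 23 genes called lower, and 0 were called higher. In the same test 1247 genes had an unadjusted p under 0.05. No alternative method, DESeq2 and limma-voom included, called a member. The difference was 1.28 for Icam1 (95% interval 0.38 to 2.18, unadjusted p = 0.00930, adjusted p = 0.421) and 0.30 for F11r (0.0063 to 0.59, unadjusted p = 0.0460, adjusted p = 0.618). It was 2.23 for Sele (-0.19 to 4.64), 2.47 for Selp (-0.30 to 5.24), 0.78 for Vcam1 (-0.090 to 1.64) and 0.47 for Jam2 (-0.26 to 1.19). These 4 intervals include 0 and were wide. With 1 library left out, the difference ran from 1.76 to 3.33 for Sele and from 1.56 to 3.35 for Selp. It ran from 0.53 to 1.11 for Vcam1, 0.28 to 0.74 for Jam2, 0.99 to 1.61 for Icam1 and 0.25 to 0.40 for F11r. The difference for Madcam1 depends on how its 0 counts are fitted and is not given.

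In PBS no member differed between genotypes in edgeR (0% of all tested genes were called, and 344 had an unadjusted p under 0.05, Madcam1 among the members), and DESeq2 and limma-voom called none either. Madcam1 was the 1 member without overlap in PBS, with 0 against 1 to 2 counts, where 2.47% of all tested genes were higher without overlap. In LPS, Sele was higher in Adm+/- than in WT mice, and it was the 1 member of 9 called, where 0.327% of all tested genes were higher. Levels of Sele were 15.2 ± 1.52 CPM in Adm+/- LPS and 2.60 ± 2.47 CPM in WT LPS (SD, n = 3). Its log2 fold change between genotypes was 2.52 (SE 0.54, adjusted p = 0.0388, or 0.0329 without the filter on low counts). This call did not hold in 8 of the 12 leave-one-out fits, with adjusted p up to 0.153 without Adm+/- LPS 2, and its value ran from 2.05 without WT LPS 11 to 3.62 without WT LPS 9. The fits that kept it were those without WT PBS 4, WT PBS 5, WT LPS 9 or WT LPS 11. Icam1, Selp, Madcam1 and Jam2 were also higher in every Adm+/- LPS than in every WT LPS library, which made 5 of 9 members against 12.2% of all tested genes. Sele and Madcam1 passed the filter on low counts only through the LPS groups. Of the 7 other members, Icam1, Selp and Jam2 were without overlap. Log2 fold changes between genotypes were 1.09 for Icam1 (adjusted p = 0.0828), 1.91 for Selp (adjusted p = 0.157), 0.64 for Madcam1 (adjusted p = 0.413) and 0.50 for Jam2 (adjusted p = 0.365). Those of Vcam1, F11r, Selplg and Icam2 were 0.88, 0.26, -0.19 and 0.08 (adjusted p = 0.141, 0.214, 0.717 and 0.870). Single libraries moved 3 of these calls: Icam1 was called without WT LPS 9 (1.41, adjusted p = 0.0342), Vcam1 without WT LPS 10 (1.22, adjusted p = 0.0356) and Jam2 without WT PBS 5 (0.51, adjusted p = 0.0477). The Selp value ran from 1.40 without WT LPS 11 (adjusted p = 0.169) to 2.79 without WT LPS 9 (adjusted p = 0.0507). DESeq2 called Icam1 (adjusted p = 0.00843) and Vcam1 (adjusted p = 0.0383) beside Sele. The Sele call itself was lost with the stricter glmTreat (adjusted p = 0.0800) and in the fit of the LPS libraries alone (adjusted p = 0.0931).

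The WT LPS libraries varied more among themselves than the Adm+/- LPS libraries for most induced members. WT LPS 9 was the highest of the 3 for 7 members and WT LPS 11 the lowest for 7, and 6 members (Icam1, Sele, Selp, Madcam1, F11r and Jam2) had WT LPS 9 over WT LPS 10 over WT LPS 11. Against the mean of the WT PBS libraries, Sele was 21.5-fold, 7.87-fold and 2.09-fold higher in WT LPS 9, 10 and 11, and 43.4-fold to 53.0-fold higher in the Adm+/- LPS libraries over their own PBS mean. Icam1 was 2.65-fold, 1.99-fold and 1.03-fold its WT PBS mean, and 4.41-fold to 4.74-fold in Adm+/- LPS. From highest to lowest, WT LPS libraries were spread 10.3-fold for Sele and 2.57-fold for Icam1, and Adm+/- LPS libraries 1.22-fold and 1.07-fold. Selplg was different, with its lowest WT value in WT LPS 10. The neutrophil markers summed to 4073, 2416 and 2296 CPM in WT LPS 9, 10 and 11, and 12 skeletal muscle markers to 1989, 2189 and 882 CPM there against at most 55.6 CPM in any other group. The part of either in the spread of the adhesion genes, or in their differences between genotypes in LPS, was not tested.

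**Figure D3:**
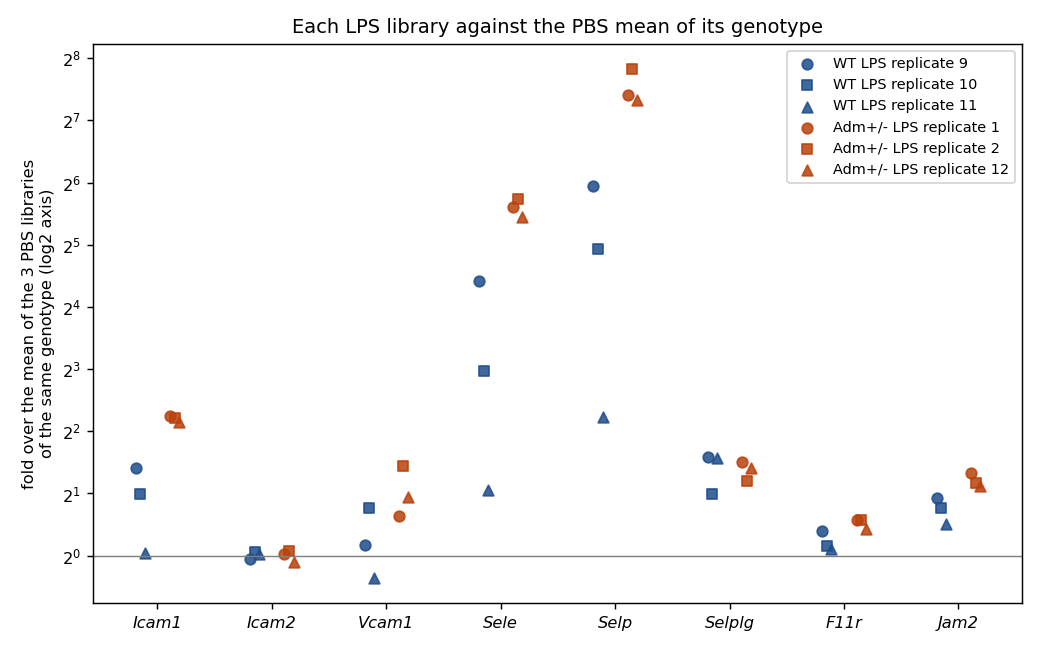
Level of 8 genes in each LPS library as a fold over the mean of the 3 PBS libraries of its genotype, on a log2 axis. For Sele and Selp the 3 WT LPS libraries (blue) lie apart from each other and below the 3 Adm+/- LPS libraries (orange), whereas for Selplg the genotypes mix.

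The order of the members by level, compared per kb of merged exon, was the same by mean in WT PBS and WT LPS and differed between PBS and LPS in Adm+/- mice. In WT PBS the order was Icam1 (55.1 ± 13.8 CPM per kb), F11r (52.0 ± 1.34), Icam2 (24.9 ± 2.66), Vcam1 (8.46 ± 2.105), Jam2 (5.54 ± 2.03), Selplg (3.00 ± 0.276), Selp (0.152 ± 0.126), Sele (0.0853 ± 0.0457) and Madcam1, which was not detected (SD, n = 3). The ranges of Icam1 and F11r overlapped, as did those of Vcam1 and Jam2, Jam2 and Selplg, and Selp and Sele. In Adm+/- PBS F11r (50.6 ± 2.19 CPM per kb) and Icam1 (48.1 ± 9.97) overlapped at the top, and Sele (0.108 ± 0.0150) and Selp (0.0993 ± 0.0361) overlapped near the bottom. In Adm+/- LPS Icam1 stood alone at the top at 221 ± 8.01 CPM per kb, followed by F11r at 72.7 ± 4.21 and Icam2 at 26.6 ± 1.55. There Selp was at 18.4 ± 3.51 CPM per kb, within the range of Vcam1 at 18.8 ± 5.46 and above Jam2 at 13.1 ± 0.959, Selplg at 6.97 ± 0.737 and Sele at 5.22 ± 0.520. In WT LPS Selp was at 4.89 ± 4.31 CPM per kb, and every neighbour from Vcam1 down to Madcam1 in this order overlapped the next. Of the level summed over the 9 members per kb, the selectins made up 0.0745% to 0.269% in PBS libraries, 0.546% to 4.0003% in WT LPS and 5.68% to 7.07% in Adm+/- LPS. Icam1 made up 28.9% to 43.8% in PBS libraries, 34.8% to 52.4% in WT LPS, which overlapped the PBS range, and 56.0% to 58.6% in Adm+/- LPS.

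The partners of these molecules were described in lists that cover each step, each set beside the shares of all tested genes that rose and fell (10.5% and 7.09% in WT, 12.8% and 12.2% in Adm+/- mice) and their medians (0.0091 and -0.013). Among 10 tested leukocyte integrin genes, 4 rose and 1 fell in WT and 4 rose and 2 fell in Adm+/- mice, with medians of 0.11 and 0.26. The 1 and 2 that fell are near the background shares. The subunits of the ICAM1 receptors rose in both: Itgb2, the shared beta2 chain, by 1.58 and 1.55 on the log2 scale (adjusted p = 0.000237 and 0.000124), Itgal, the LFA-1 alpha chain, by 0.91 and 0.81 (adjusted p = 0.00742 and 0.00848), and Itgam, the Mac-1 alpha chain, by 3.47 and 3.63. Itgb2l, a close relative of Itgb2 with which it may share reads, was the other that rose. The sum of neutrophil markers was higher beside these genes, going from a median of 104 to 2416 CPM in WT and from 93.5 to 3289 CPM in Adm+/- mice, and its part in the changes of the integrin, activation and sheddase lists was not tested. Itgae, the chain of a lymphocyte integrin that binds E-cadherin, fell in both, and Itga4, the alpha chain of the VCAM1 and MAdCAM-1 receptors, fell by 0.69 in Adm+/- mice. The abundant Itgb1 and Itga9 did not pass (log2 fold change -0.09 and -0.31 in WT, 0.08 and 0.14 in Adm+/- mice).

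Of 10 genes of integrin activation, 4 rose in WT (Fyb, Apbb1ip, Fermt3 and Rap1b) and 3 rose and 1 fell in Adm+/- mice, with medians of 0.40 and 0.37. Over all tested genes 10.5% rose in WT, and 12.8% rose and 12.2% fell in Adm+/- mice. Fermt3, the kindlin of blood cells, rose by 1.11 and 1.06, and Rasgrp2, an activator of Rap1, fell by 1.06 in Adm+/- mice. Rap1b rose by 0.79 in WT (adjusted p = 0.0436) and stood at 0.69 in Adm+/- mice (adjusted p = 0.0549). Talin (Tln1) did not pass, at -0.33 and -0.21, nor did Rap1a and Cyth1.

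Of 17 tested selectin ligands and enzymes of their synthesis, 5 rose and 2 fell in each genotype, or 29.4% and 11.8%, with medians of 0.090 and -0.032. Over all tested genes 10.5% rose and 7.09% fell in WT and 12.8% and 12.2% in Adm+/- mice, so the share that fell is near the background. Cd44, an E-selectin ligand once glycosylated, rose by 0.70 and 1.083 in WT and Adm+/- mice (adjusted p = 0.0350 and 0.00285), and Fut4, a fucosyltransferase, by 1.13 and 1.79. B4galt1, a galactosyltransferase, rose by 1.26 in Adm+/- mice (adjusted p = 0.00111) and stood at 0.62 in WT (adjusted p = 0.0527). Chst2, a sulfotransferase, fell by 1.61 and 1.83, and Tpst1, a tyrosine sulfotransferase, fell by 0.52 and 0.74. The sialomucins Podxl (-0.21 and -0.39) and Cd34 (-0.18 and 0.03) were not called.

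Of 17 junctional genes 1 rose in WT, and 2 rose and 3 fell in Adm+/- mice, or 11.8% and 17.6%, with medians of -0.15 and 0.091. These counts are close to the background, where 10.5% rose in WT, and 12.8% rose and 12.2% fell in Adm+/- mice. Cd47 rose in both, Pvr rose and Jam3, Aoc3 and Cd99l2 fell in Adm+/- mice, and the abundant Cdh5 (VE-cadherin; -0.15 and 0.09), Cldn5 (-0.35 and 0.14), Mcam (-0.11 and 0.39) and Ctnnb1 (-0.16 and 0.02) were not called. Of 11 cytoskeletal and tetraspanin anchors of ICAM1 and VCAM1, Cd9 rose in WT (9.09% against 10.5% of all tested genes) and none was called in Adm+/- mice. Flna (-0.23 and -0.20), Msn (-0.06 and 0.17), Ctnna1 (-0.20 and -0.11) and Cd81 (-0.49 and -0.47) were not called, the last because its change was under the fold limit. Icam5, the other ICAM tested, stood at -0.05 and 1.13 and was not called.

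Of 9 genes of the Weibel-Palade body, the endothelial granule that stores P-selectin, 2 rose and 2 fell in each genotype, or 22.2% each way, with medians of 0.035 and 0.29. Over all tested genes 10.5% rose and 7.09% fell in WT and 12.8% and 12.2% in Adm+/- mice, and in a list of 9 genes such shares correspond to about 1 gene. Plat, tissue plasminogen activator, rose by 1.05 (adjusted p = 0.00396) and 1.503 (adjusted p = 0.000270), whereas Angpt2, angiopoietin-2, fell by 0.62 and 0.89. The granule's main protein Vwf (-0.02 and 0.29) and its tetraspanin Cd63 (0.04 and 0.38) were not called. Among 6 sheddases and their regulators, which can release adhesion molecules from the cell surface, 4 (66.7%, against 10.5% and 12.8% of all tested genes) rose in both genotypes: Mmp9, which is also in the neutrophil marker list, by 4.11 and 3.92, Adam8 by 1.596 and 1.96, Timp3, an inhibitor, by 1.01 and 1.34, and Rhbdf2, a partner of ADAM17, by 0.50 and 1.03. Adam10 (-0.07 and -0.07) and Adam17 (0.16 and 0.22) were not called. No gene of these 8 lists was called between genotypes in PBS, in LPS or in the difference of the LPS effects.

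**Figure D4:**
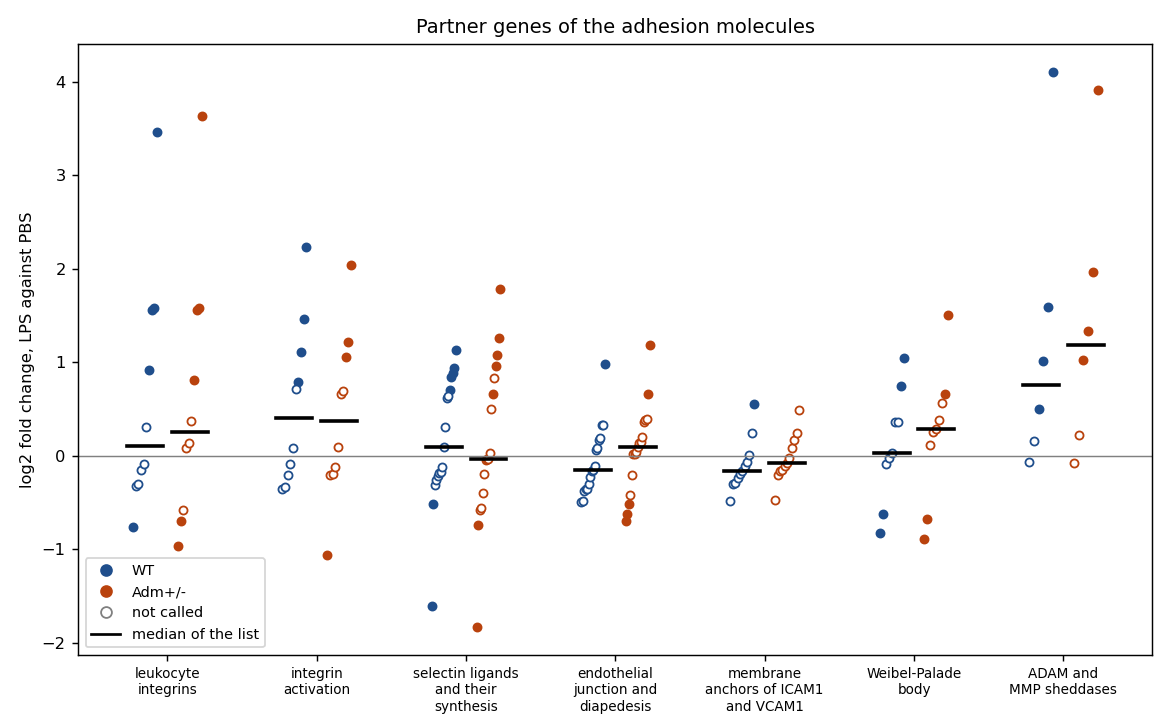
Log2 fold change of LPS against PBS for the tested genes of 7 partner lists in WT (blue) and Adm+/- mice (orange); filled points passed the test, open points did not, and the black bar is the median of the list. The integrin, activation and sheddase lists hold genes far above 0 in both genotypes, and the medians of the junction list are -0.15 and 0.091, with 2 genes called higher and 3 lower in Adm+/- mice.

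The endothelial marker lists did not move together. The sum of the 16 general endothelial markers was lower in LPS than in PBS libraries. They summed to 5056 to 5453 CPM in WT PBS and 4281 to 4366 CPM in WT LPS, and to 5193 to 5416 CPM in Adm+/- PBS and 4520 to 4960 CPM in Adm+/- LPS. None of the 16 rose, 3 fell in WT (18.8%, against 7.09% of all tested genes) and 4 fell in Adm+/- mice (against 12.2%). The 6 lymphatic endothelial markers summed higher after LPS, from 275 to 298 CPM to 413 to 551 CPM in WT and from 251 to 299 CPM to 519 to 612 CPM in Adm+/- mice. The 9 large vessel and venous markers were at 1466 to 1914 CPM in WT PBS and 1349 to 1414 CPM in WT LPS, and overlapped in Adm+/- mice (1373 to 1641 CPM and 1429 to 1629 CPM). The 8 capillary markers were at 1529 to 2108 CPM in WT PBS and 1299 to 1491 CPM in WT LPS, and overlapped in Adm+/- mice (1591 to 1910 CPM and 1584 to 1596 CPM). As a percentage of the sum of the 16, Icam1 was at 3.26% to 5.29% in PBS libraries, 5.66% to 14.9% in WT LPS and 20.02% to 21.3% in Adm+/- LPS, and Selp was at 0.00487% to 0.0255%, 0.0721% to 0.961% and 1.4997% to 2.17%. Icam2 was at 0.764% to 1.06% in PBS libraries and 1.04% to 1.16% in LPS libraries. Among the markers, 1 capillary gene, Aplnr, was higher in Adm+/- than in WT mice in LPS, by 0.92 on the log2 scale (adjusted p = 0.0109), and no marker of the list of 16 was. The 12 monocyte and macrophage markers summed to 1096 to 1340 CPM in WT PBS and 1748 to 2345 CPM in WT LPS, and to 1080 to 1293 CPM and 1959 to 2413 CPM in Adm+/- mice. The part of cell numbers in the adhesion genes was not tested.

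**Figure D5:**
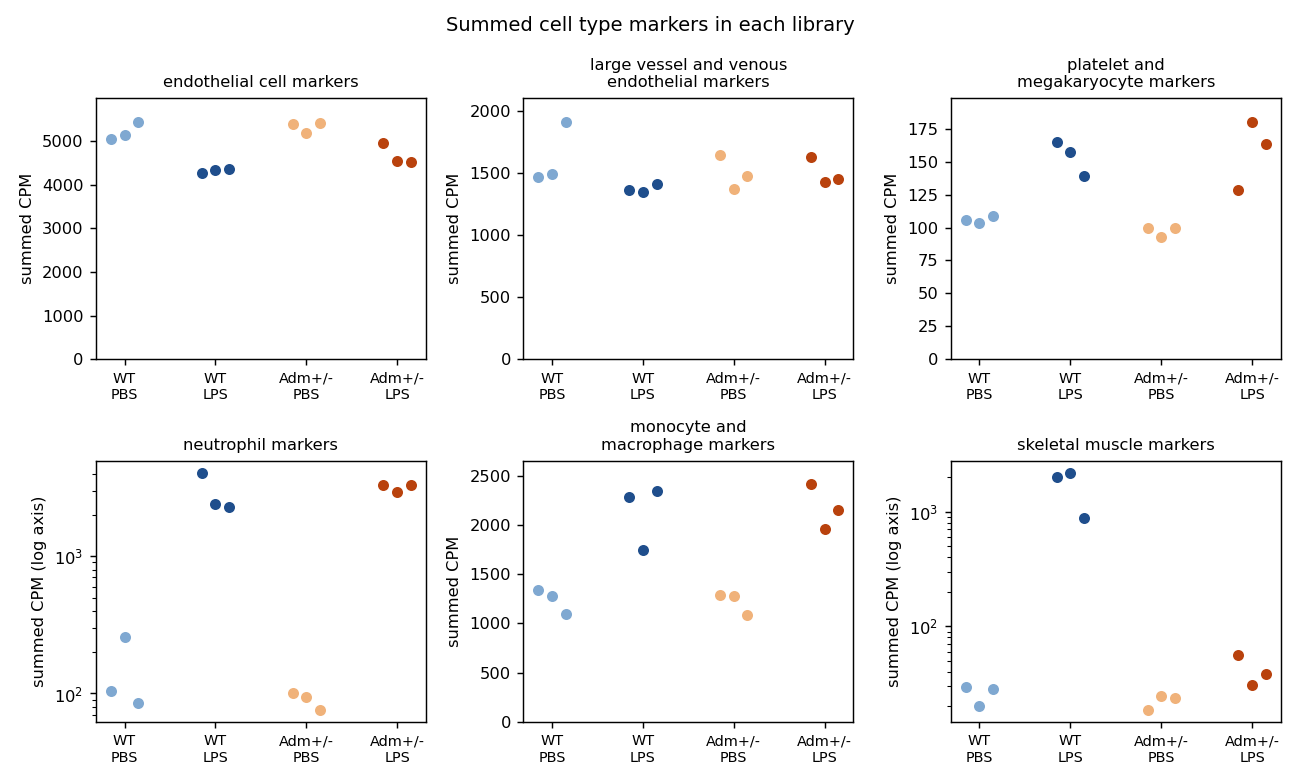
Summed CPM of 6 sets of cell type markers in each library, with log axes for the neutrophil and skeletal muscle sets and linear axes from 0 for the others. The sums of the 16 endothelial markers are lower in LPS than in PBS libraries, those of the large vessel set overlap in Adm+/- mice, neutrophil sums are higher in both genotypes, and skeletal muscle sums are high only in the WT LPS libraries.

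The genes whose log2 CPM followed each member most closely over the 12 libraries were found among 14601 genes, with Pearson's r as the measure of likeness. These values share libraries and treatment groups and are descriptions. The 3 genes closest to Selp included Sgms1 and Sod2 (r = 0.996 for each), and those closest to Sele included Jak1 and Rapgef5 (r = 0.993 and 0.992). Those closest to Icam1 included Neurl3 and Slc3a2 (r = 0.994 and 0.988). Selplg was closest to Itgb2 (r = 0.995), Ltb4r1 (r = 0.993), the leukotriene B4 receptor, and Nckap1l (r = 0.993), which are leukocyte genes. Madcam1 was closest to Adgrg3, Orm1 and Nadk (r = 0.973, 0.971 and 0.969). Vcam1 was closest to March5 (listed under a date-like symbol and named by its gene identifier), Nop58 and Ddx58 (r = 0.961, 0.956 and 0.951), F11r to Tmem252, Pnrc1 and Dusp16 (r = 0.984, 0.982 and 0.977), and Jam2 to Ptp4a1, Tmem9b and Tax1bp1 (r = 0.993, 0.990 and 0.990). Icam2 was closest to Hgf, Rnf26 and Virma (r = 0.938, 0.922 and 0.894).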

How the data were processed

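Total RNA of 12 whole lungs was sequenced from directional libraries. The authors trimmed reads with Trim Galore, aligned them to mm10 with HISAT2 and counted them per gene with featureCounts; the deposited table holds whole-number raw counts without normalization. The annotation release and the strand setting are not given in the sources used here, so reads of a gene and an overlapping gene may not be separated. The members and gene lists were chosen with earlier results of these data known. Groups and library numbers came from the labels, and each library was 1 mouse. All 12 pairs of libraries of 1 group differed by more than sampling noise.

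Protein-coding genes kept by filterByExpr (15885 of 21950) were fitted with edgeR 4.0.16 (R 4.3.3), with TMM factors and 1 mean for each of 4 groups. The quasi-likelihood test gave p-values for 5 contrasts, adjusted by Benjamini-Hochberg over all tested genes. Intervals are 95%. CPM used TMM-scaled library sizes. Positions and merged exon lengths came from Gencode M21 (GRCm38), which held 99.7% of the genes. Counts carry no molecular identifiers, so floors cover counting error only. The code was tested on simulated data. Alternatives were RLE size factors, DESeq2 1.42.0, limma-voom (limma 3.58.1), glmTreat against 0.5, other gene filters, a fit of the compared groups alone, and leaving out libraries. Beside the members, genes were named as the 4 most abundant per kb of each partner list, any of their genes called between genotypes, and the 3 genes most like each member; some genes that this rule names are not reported here. Other called genes of the lists, Aplnr and the overlapping genes were named after their values were seen.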

Additional observations from a re-analysis of the deposited data

Results flagged for a closer look

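The comparisons did not use the 4 genes that overlap members on the other strand. Of these, 3 had every LPS library above every PBS library in 1 or both genotypes. Over all tested genes 18.3% did so in WT and 26.6% in Adm+/- mice. The genes at Selp rest on few counts. Gm16587, antisense to Selp, had 14 counts over the 3 WT LPS libraries against 1 in WT PBS, and 41 in Adm+/- LPS against 1 in Adm+/- PBS. Gm16548, on the other strand of Selp, had 15 counts in Adm+/- LPS against 0 in Adm+/- PBS. Gm47079, antisense to Icam1, had 122 counts in Adm+/- LPS against 39 in Adm+/- PBS, and 77 in WT LPS against 33 in WT PBS, where the libraries overlapped once scaled for depth. Gm43109, antisense to Vcam1, had 10 counts in WT LPS against 16 in WT PBS and 11 in Adm+/- LPS against 19 in Adm+/- PBS, with libraries that overlapped in both genotypes and 15 of the 19 counts in Adm+/- PBS 7. Whether these reads came from the members or from the other strand cannot be told apart without the strand setting of the counting. Groups of 3 were too small for the check for single outlying libraries.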

How the results depend on the processing

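The count of members called by LPS was 4 to 6 in WT and 6 to 8 in Adm+/- mice when 1 library was left out, and 3 to 6 and 6 to 8 under the 9 other alternatives, with the lowest WT count of 3 when only the WT libraries were fitted. For Adm+/- against WT in LPS it was 0 to 2 when 1 library was left out, 3 with DESeq2, 0 with glmTreat, 0 when only the LPS libraries were fitted and 2 without both WT PBS 5 and Adm+/- PBS 6. No member was called in the difference or in PBS under any alternative run. Selp, Selplg and Madcam1 kept both LPS calls wherever they were tested, and Icam1, Sele and Jam2 kept the Adm+/- call. Madcam1 was not tested with at least 1 CPM in 3 libraries. Of 929 values of single members, 845 kept direction and call, 44 lost a call, 6 gained one and 34 changed sign; no called value changed sign. glmTreat, which tests against a log2 fold change of 0.5, took the calls of Icam1 and Jam2 in WT and of Vcam1 and F11r in Adm+/- mice. These calls were also lost in 9, 8, 3 and 2 of the 12 leave-one-out fits, in this order.

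Sign changes were all among values that were not called. Leaving out 1 library, the Icam2 effect ran from -0.076 to 0.064 in WT, from -0.070 to 0.063 in Adm+/- mice and from -0.077 to 0.082 for the difference. The Selplg difference ran from -0.19 to 0.085 and the Vcam1 effect in WT from -0.067 to 0.50. Between genotypes in PBS, Selp ran from -0.89 to 0.35, Vcam1 from -0.069 to 0.28 and Jam2 from -0.24 to 0.22. Without both WT PBS 5 and Adm+/- PBS 6, Icam2 was at -0.076 in WT, -0.061 in Adm+/- mice and 0.014 for the difference, the Selplg difference was 0.064, and in PBS Vcam1 was at -0.027 and Jam2 at -0.13. With all annotated genes Icam2 was at -0.012 in both genotypes and 0.000485 for the difference, and in Adm+/- mice it was at -0.0015 with limma-voom and -0.0048 without the filter. The cause was not tested. Over all genes, DESeq2 called 803 between genotypes in LPS and 168 in the difference, against 325 and 23, and the fit of the WT libraries alone called 1152 for LPS against 2791. No paired analysis was possible because the groups share no replicate number. In PBS the selectins and Madcam1 rest on few counts, which limits the precision of their folds.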
